A study of Homo sapiens with 6 samples.

Results

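RNA-seq levels of 10 genes of the ETS family of transcription factors, ETS1, ETS2, ELF1, ELF2, ELK1, ELK3, ELK4, GABPA, ERF and ETV6, were examined in Ewing sarcoma cells under CDK7 inhibition. The genes were chosen by name from the ETS factors other than the fusion partner of the disease, with earlier results of these data known. They are a part of that family, and all 10 were found among the 27420 genes of the deposited table. The cells were those of A673 and SKNMC, a pair of established lines of this tumour cultured in DMEM with serum. Each line received DMSO as the vehicle control or THZ1, a covalent inhibitor of the transcriptional kinase CDK7, at 50 or 200 nM, and RNA was taken after 6 h. There were 6 libraries in all, 1 for each line and condition, so no condition was replicated. Within a line there is thus no replicate error to hold a difference against, and values that lie close to each other cannot be ordered. One test, of the mean difference over the lines, took the lines as replicates of each other. Levels are FPKM, the fragments of a gene scaled to transcript length and to the size of the library.

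ETS factors share a DNA-binding domain that recognises a GGAA core, and they differ in the flanking bases, in their partners and in whether they activate or repress. In Ewing sarcoma a chromosomal fusion joins EWSR1 to an ETS gene, most often FLI1, and the product, EWS-FLI1, binds single ETS sites as well as GGAA repeats. The other ETS factors of the cell can recognise the same core. ETS1 and ETS2 are activators phosphorylated by the ERK kinases. ELF1 and ELF2 form the ELF branch, ELK1, ELK3 and ELK4 are the ternary complex factors that bind DNA together with SRF, GABPA is the DNA-binding subunit of GABP, and ERF and ETV6 are repressors.

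The promoters of the members were compared for ETS sites, since these are the sequences through which family members could act on each other. RefSeq promoter windows (GRCh38.p14), the 250 bases before each listed start, were found for 9 of the 10 genes, with 16 windows in all. The high-affinity site CCGGAAGT, searched on both strands as CCGGAAGT and ACTTCCGG, was found in the windows of 2 of the 9 genes, ELK4 and GABPA. The shorter core CCGGAA, which the longer site contains, was also searched on both strands and was found in the same 2 genes. Of all 27305 genes with a window, 4.13% held the longer site and 17.2% the core. The shares were higher among genes with a window that were above 1 FPKM with DMSO. There 9.15% held the longer site and 32.1% the core in A673, and 8.71% and 31.3% in SKNMC. GGAAGGAA (TTCCTTCC on the other strand), a pair of adjacent GGAA units as in the repeats bound by EWS-FLI1, was found in 1 of the 3 windows of ELF1 and in 3.76% of all genes with a window. The windows of ELK4 (chr1:205632012-205632261, minus strand) and GABPA (chr21:25734722-25734971, plus strand) are shown because they hold the ETS site, and the ELF1 window (chr13:40982900-40983149, minus strand) because it holds the pair of GGAA units. The most upstream window of ERF (chr19:42255129-42255378, minus strand), the member with the lowest mean fold change, is shown as one without a match. All are written 5′ to 3′ along the strand of the gene, and capitals mark the matches.
ELK4: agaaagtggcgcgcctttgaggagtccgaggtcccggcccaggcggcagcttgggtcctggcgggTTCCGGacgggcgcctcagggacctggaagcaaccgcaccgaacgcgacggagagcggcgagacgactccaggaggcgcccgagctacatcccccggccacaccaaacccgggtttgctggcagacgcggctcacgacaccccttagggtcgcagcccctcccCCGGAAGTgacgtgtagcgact
GABPA: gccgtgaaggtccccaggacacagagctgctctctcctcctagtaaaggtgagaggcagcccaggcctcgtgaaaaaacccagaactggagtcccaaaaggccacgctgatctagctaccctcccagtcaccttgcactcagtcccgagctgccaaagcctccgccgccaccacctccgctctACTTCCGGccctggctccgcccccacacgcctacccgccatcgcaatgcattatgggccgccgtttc
ELF1: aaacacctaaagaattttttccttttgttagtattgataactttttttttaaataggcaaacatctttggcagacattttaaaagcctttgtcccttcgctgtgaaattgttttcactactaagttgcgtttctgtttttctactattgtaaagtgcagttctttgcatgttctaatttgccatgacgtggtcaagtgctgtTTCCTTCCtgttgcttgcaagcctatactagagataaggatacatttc
ERF: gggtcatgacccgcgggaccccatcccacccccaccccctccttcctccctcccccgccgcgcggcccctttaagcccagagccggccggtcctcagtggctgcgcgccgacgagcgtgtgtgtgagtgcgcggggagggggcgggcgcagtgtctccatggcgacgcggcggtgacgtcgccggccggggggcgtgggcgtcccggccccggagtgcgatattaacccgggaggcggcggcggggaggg
In ELK4 the CCGGAAGT match began 22 bases before the start and the other core match 185 bases before it. In GABPA the match began 67 bases before the start, and in ELF1 it began 48 bases before the start in question. A match is a stretch of letters, and which starts these cells used was not measured.

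Without THZ1 the 10 genes were expressed over a wide range, and their order differed between the lines. ERF, a repressor that ERK phosphorylation drives out of the nucleus, was the highest in both DMSO libraries, at 64.6 FPKM in A673 and 97.7 FPKM in SKNMC. In A673 it was followed by ELK3 at 42.5 and ELK1 at 21.0 FPKM. GABPA, ELF1 and ELF2 came next at 15.2, 14.7 and 13.2 FPKM, and ETS1, ETS2, ELK4 and ETV6 were lowest, between 7.51 and 5.75 FPKM. In SKNMC, ELK1 at 52.3 FPKM came after ERF, followed by ELF2 at 22.5, ELF1 at 21.2, GABPA at 14.8, ETS2 at 14.7 and ELK3 at 12.5 FPKM. ELK4 and ETV6 were at 6.98 and 4.78 FPKM, and ETS1 at 0.228 FPKM. Neighbours such as GABPA and ELF1 in A673, with a ratio of 1.04, or GABPA and ETS2 in SKNMC, with a ratio of 1.01, cannot be told apart with 1 library each.

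The clearest line difference was that of ETS1, the founding member of the family. It was at 7.51 FPKM in A673 and at 0.228 FPKM in SKNMC with DMSO, a difference of 2.79 on the log2 scale of FPKM + 1. ELK3, a ternary complex factor that represses in unstimulated cells, was also higher in A673, by 1.69 (log2), and ELK1 was higher in SKNMC, at -1.28 for A673 over SKNMC. Of the 12399 genes above 1 FPKM with DMSO in at least 1 of the lines, 8.42% were at least 2-fold higher in A673 and 15.0% at least 2-fold higher in SKNMC. Among the members these were ETS1 and ELK3 in the one direction and ELK1 in the other. Other scalings moved these calls: ELK1 was no longer past 2-fold when ribosomal protein genes were set equal between libraries (-0.84), and ETS2 (-0.92) passed it when the upper quartile of active genes was set equal (-1.06). ETS1 lies 99.0 kb from FLI1 on chromosome 11, and FLI1 was at 31.5 FPKM in A673 and 27.3 FPKM in SKNMC.

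**Figure D1:**
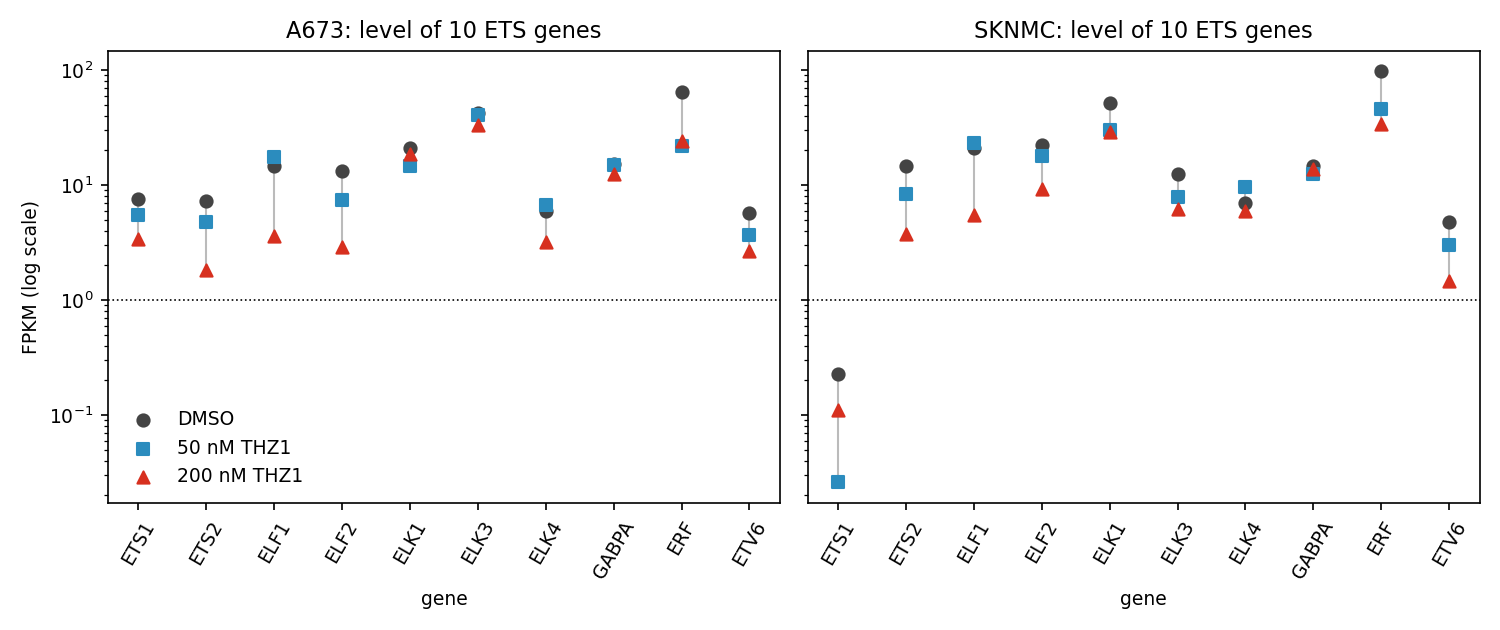
FPKM (log axis) of the 10 ETS genes in A673 (left) and SKNMC (right); each symbol is 1 library, grey lines join the lowest and highest of the 3 libraries of a line, and the dotted line marks 1 FPKM, above which a gene with DMSO was taken as active. ETS1 in SKNMC lies below 1 FPKM in every library, and ELF1 at 200 nM lies far below its other values in both lines.

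A gene counted as active in a line if it exceeded 1 FPKM with DMSO, which held for all 10 members in A673 and for 9 in SKNMC, without ETS1. Fold changes are log2((FPKM + 1) of THZ1 / (FPKM + 1) of DMSO), and a gene was counted as decreased or increased when it changed at least 2-fold on this scale. At 50 nM THZ1, 1 of 10 members was decreased in A673, where 15.9% of all 11077 active genes were, and 1 of 9 in SKNMC, where 15.8% of 11896 active genes were. This was ERF in both lines. At 200 nM, 4 of 10 members were decreased in A673 against 25.3% of active genes, and 5 of 9 in SKNMC against 27.3%. ETS2, ELF1, ELF2 and ERF were decreased in both lines and ETV6 in SKNMC. No member was increased at least 2-fold in any of the 4 comparisons, and 0.343% and 0.126% of active genes in A673 and 0.471% and 0.462% in SKNMC were. The median log2 fold change of the active members in A673 was -0.44 at 50 nM and -0.91 at 200 nM, where the medians of all active genes were -0.27 and -0.40. In SKNMC it was -0.52 and -1.19, where those of all active genes were -0.32 and -0.55. These shares and medians describe the list and were not tested. The fibroblast markers COL1A1, COL3A1 and DCN were each higher at each dose in SKNMC. They were at 30.4, 33.6 and 41.5 FPKM, at 19.1, 23.4 and 38.1 FPKM and at 30.9, 37.1 and 54.5 FPKM. In A673 they did not rise in this way, at 9.04, 9.52 and 7.18, at 35.7, 44.3 and 42.7 and at 0.309, 0.176 and 0.330 FPKM. The part of these markers in the values of the ETS genes was not tested.

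**Figure D2:**
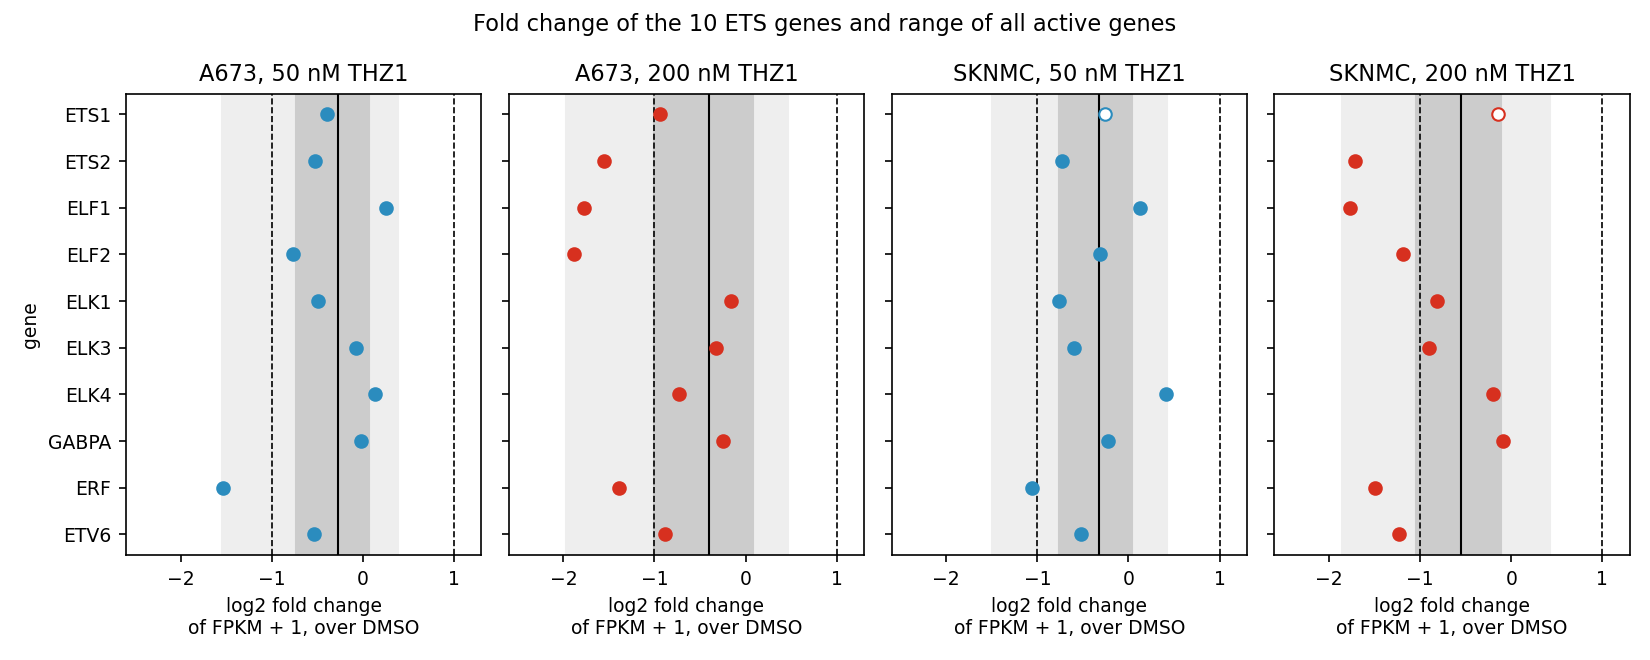
Log2 fold change of FPKM + 1 over DMSO for each of the 10 ETS genes (points) in the 4 comparisons; open points mark ETS1 in SKNMC, which was not active, the dark and light grey bands hold the middle 50% and 90% of all active genes, the solid line is their median, and dashed lines mark 2-fold. ERF lies left of the lower 2-fold line in all 4 panels, and ELF1 lies right of 0 at 50 nM and at -1.77 at 200 nM in both lines.

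The mean difference over A673 and SKNMC was tested by a limma fit of log2(FPKM + 1) on line and dose over the 6 libraries. It covered the 10574 genes active in both lines and was added after the data were seen. A call does not require a like difference in each line. Here 2 unlike lines stand as the replicates, with 2 residual degrees of freedom and a spread moderated over all genes, so the p-values do not measure the error of a culture. At 50 nM 5 of 9 members were lower at a Benjamini-Hochberg adjusted p up to 0.05, where 38.5% of genes were lower and 5.12% higher. These were ERF (-1.30 ± 0.16, SE, adjusted p = 8.28e-05), ETS2, ELK1, ELF2 and ETV6. At 200 nM 8 of 9 were lower, all but GABPA, where 52.7% of genes were lower and 6.08% higher. Of these, ELK1 was at -0.16 in A673 and -0.82 in SKNMC, and ELK4 at -0.73 and -0.20. ELF1 (-1.77 ± 0.16, adjusted p = 4.94e-06) and ETS2 (-1.63 ± 0.17, adjusted p = 1.33e-05) had the smallest adjusted p by limma, and ELK4 (-0.47 ± 0.19, adjusted p = 0.0497) the one nearest the threshold. From 50 to 200 nM, ELF1 (-1.96 ± 0.16, adjusted p = 3.69e-05), ETS2, ELF2 and ELK4 were lower, 4 of 9, where 23.2% of genes were lower and 3.37% higher. GABPA had adjusted p-values of 0.593 and 0.388 by limma at 50 and 200 nM, for differences of -0.12 ± 0.17 and -0.17 ± 0.17 (SE). With the ribosomal protein scaling all 9 members were lower at 200 nM, where 76.9% of genes were lower. GABPA was then at -0.61 ± 0.20 (SE, adjusted p = 0.00845 by limma). As deposited, no member was higher in any of the 3 comparisons. With the 75th percentile scaling ERF alone was lower at 50 nM and ELF1 alone higher, where 25.2% of genes were lower and 17.8% higher. At 200 nM 5 members were lower under that scaling, where 32.0% of genes were lower and 24.7% higher.

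The same DMSO library of a line stands behind both of its doses, so the fold changes at 50 nM and 200 nM are given side by side and not as repeats. FPKM is a share of a library. With the 75th percentile over active genes set equal in all libraries, the all-gene median shifted by 0.22 and 0.32 at 50 and 200 nM in A673 and by 0.25 and 0.48 in SKNMC. With the median over 87 ribosomal protein genes set equal, it shifted by -0.22 and -0.33 in A673 and by -0.29 and -0.45 in SKNMC. Which scaling reflects RNA content of the cells was not tested. Under these 2 scalings the count of decreased members in A673 was 1 and 2 for the low dose and 4 and 7 for the high dose, and in SKNMC 0 and 3 and then 2 and 7. The share of all active genes decreased moved with it, and was 10.1% and 23.9% in A673 at 50 nM, 16.1% and 37.4% at 200 nM, and 9.67% and 25.7% and then 13.0% and 49.9% in SKNMC.

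ELF1, an activator best known from lymphoid genes, had the largest step between the doses. In A673 it was at 14.7 FPKM with DMSO, 17.6 with 50 nM and 3.60 with 200 nM THZ1. In SKNMC it was at 21.2, 23.4 and 5.53 FPKM. The low dose left it slightly above DMSO in both lines, and the high dose left 24.5% of the DMSO value in A673 and 26.0% in SKNMC. The log2 fold changes were 0.25 and -1.77 in A673 and 0.13 and -1.77 in SKNMC. The value at 50 nM in SKNMC turned to -0.19 with the ribosomal protein scaling, and the other 3 kept their sign under every scaling. Between the doses the difference was -2.02 in A673 and -1.90 in SKNMC on the log2 scale of FPKM + 1. A decrease of at least 2-fold from 50 to 200 nM was found for 7.44% of active genes in A673 and for 8.39% in SKNMC. Among members it was found for 3 of 10 in A673, ELF1, ELF2 and ETS2, and for 1 of 9 in SKNMC, ELF1. An increase of this size was found for 0.117% and 0.370% of active genes and for no member. With the 75th percentile scaling the step of ETS2 in A673 was -0.94. With the ribosomal protein scaling ETS2 (-1.12) and ELF2 (-1.07) also passed 2-fold in SKNMC. The share of all active genes past 2-fold between the doses under that scaling was not determined, so these calls cannot be set against it. The pattern of ELF1, with no lower value at 50 nM and at least a 2-fold decrease at 200 nM in both lines, was described only after its values were seen. It was met by 70 of 10574 genes active in both lines (0.662%). Among genes active in both lines, 0 of the 6 other ETS family genes and 0 of the 15 partner genes met it. At so small a share, lists of this length cannot set ELF1 apart. ELF1 overlaps WBP4, a splicing factor gene on the other strand, by 167 bp, and WBP4 had another course, at 8.68, 3.07 and 3.49 FPKM in A673 and 8.01, 2.40 and 2.31 FPKM in SKNMC.

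ELF2, the paralogue of ELF1, did not share this course. It was at 13.2, 7.36 and 2.87 FPKM in A673 with DMSO, 50 nM and 200 nM, and at 22.5, 18.0 and 9.30 FPKM in SKNMC. Its level was lower at each dose than at the one before in both lines. The log2 fold changes were -0.77 and -1.88 in A673 and -0.31 and -1.19 in SKNMC. With the 75th percentile scaling those in SKNMC were -0.033 and -0.67. ELF2 overlaps CCRN4L, which encodes the circadian protein nocturnin and lies on the other strand, by 17641 bp. Whether counting used the strand is not given in the sources used here. CCRN4L was at 7.85, 10.7 and 1.94 FPKM in A673 and at 7.04, 9.71 and 1.24 FPKM in SKNMC, and its part in the values of ELF2 was not tested.

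ETS2, the paralogue of ETS1, was decreased at 200 nM in both lines. It was at 7.29, 4.79 and 1.83 FPKM in A673 and at 14.7, 8.44 and 3.77 FPKM in SKNMC, with a lower value at each dose. At 200 nM it kept 25.1% and 25.7% of its DMSO value in the 2 lines, log2 fold changes of -1.55 and -1.72. At 50 nM these were -0.52 and -0.73. ETS1 in A673 was at 7.51, 5.51 and 3.43 FPKM, with log2 fold changes of -0.39 and -0.94. The value at 200 nM lay just short of 2-fold, and it was -1.11 with a pseudocount of 0.1 in place of 1. In SKNMC, ETS1 was at 0.228, 0.0260 and 0.110 FPKM, too low for a fold change to be read.

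ERF and ETV6, the repressors of the list, had different dose courses. ERF in A673 was at 64.6, 21.7 and 24.0 FPKM with DMSO, 50 and 200 nM, and in SKNMC at 97.7, 46.3 and 33.9 FPKM. Most of its difference was already there at 50 nM, where it kept 33.6% of the DMSO level in A673 and 47.3% in SKNMC. The log2 fold changes were -1.53 and -1.39 in A673 and -1.06 and -1.50 in SKNMC. The value of -1.06 lay just past the threshold and was -0.78 with the 75th percentile scaling, under which that at 200 nM was -0.94. Between the doses ERF differed by 0.14 in A673 and by -0.44 in SKNMC (log2). Among genes active in both lines, 11.4% were past a 2-fold decrease in both at the low dose, and ERF was the 1 of 9 members that was. At the high dose it was 20.4% of genes and 4 of 9 members. The span of ERF lies almost wholly within AC006486.9, a listed gene on the same strand, which was at or below 0.843 FPKM in every library. ETV6, known from its fusions in leukaemia, was at 5.75, 3.69 and 2.68 FPKM in A673 and at 4.78, 3.03 and 1.47 FPKM in SKNMC. Its log2 fold changes were -0.53 and -0.88 in A673 and -0.52 and -1.23 in SKNMC, where the last became -0.84 with the 75th percentile scaling. In A673 at 200 nM it was -1.08 with a pseudocount of 0.1.

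**Figure D3:**
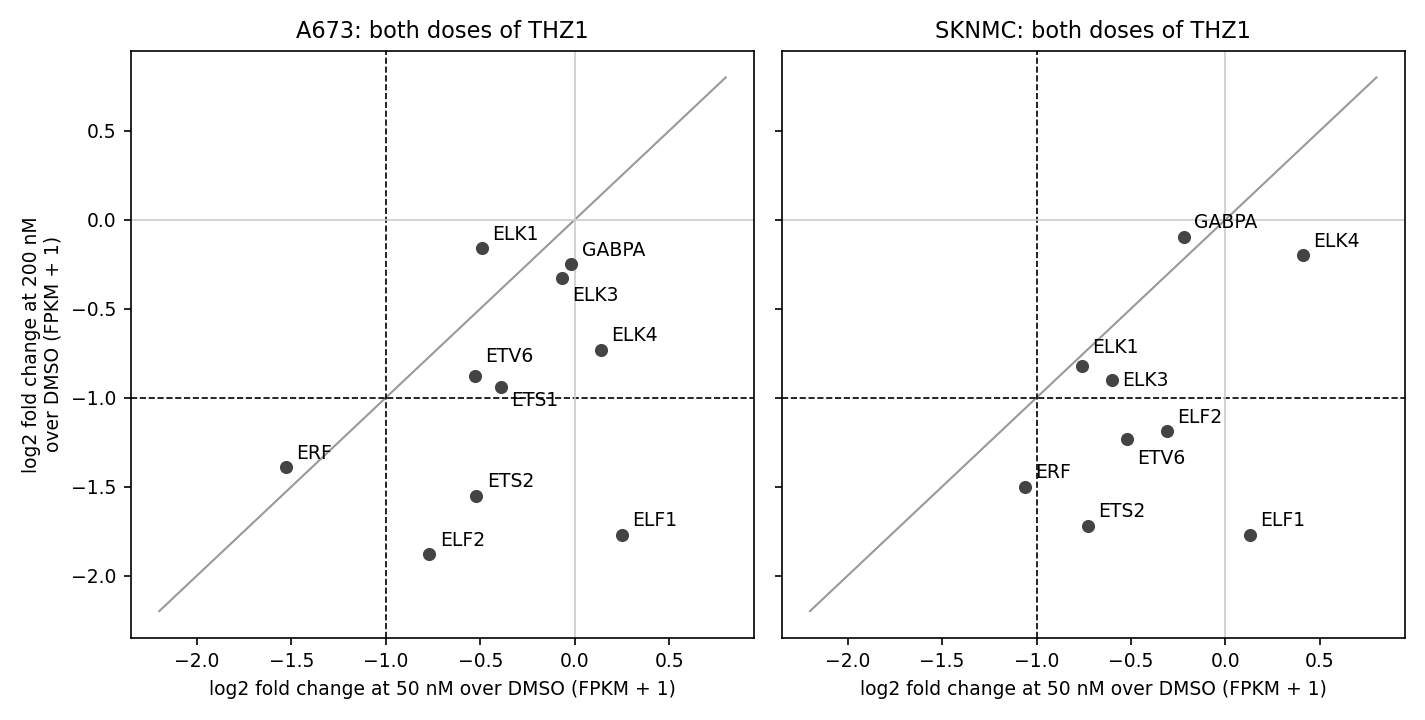
Log2 fold change over DMSO at 200 nM (vertical) against 50 nM (horizontal) for the active ETS genes, 1 point per gene, on the log2 scale of FPKM + 1; the grey diagonal marks equal values and dashed lines mark a 2-fold decrease. ELF1 lies farthest below the diagonal in both lines, and ERF lies left of the vertical dashed line.

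The ternary complex factors, which link ERK signalling to genes such as FOS, lay closer to DMSO than ELF1, ELF2, ETS2 and ERF at 200 nM, and none of the 3 was past 2-fold in any comparison. ELK1 was at 21.0, 14.7 and 18.7 FPKM in A673, lowest at 50 nM, and at 52.3, 30.4 and 29.2 FPKM in SKNMC. Its log2 fold changes were -0.49 and -0.16 in A673 and -0.76 and -0.82 in SKNMC, and that of -0.16 turned to 0.20 with the 75th percentile scaling. ELK3 was at 42.5, 40.5 and 33.6 FPKM in A673 and at 12.5, 7.87 and 6.25 FPKM in SKNMC. Its log2 fold changes were -0.069 and -0.33 in A673, both of which changed sign with the 75th percentile scaling (0.18 and 0.037), and -0.60 and -0.90 in SKNMC. With the ribosomal protein scaling ELK1 passed 2-fold in SKNMC at both doses, at -1.09 and -1.36, and ELK3 at 200 nM, at -1.38. ELK4 was the one member besides ELF1 that was above DMSO at 50 nM in both lines, at 5.99, 6.71 and 3.21 FPKM in A673 and 6.98, 9.62 and 5.93 FPKM in SKNMC. These are log2 fold changes of 0.14 and -0.73 in A673 and 0.41 and -0.20 in SKNMC. The first became -0.067 and the second -1.07 with the ribosomal protein scaling, and the last became 0.29 with the 75th percentile scaling.

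GABPA, which activates many genes of mitochondrial and housekeeping function, stayed nearest to its DMSO level in the sense that none of its log2 fold changes exceeded 0.25 in size. It was at 15.2, 15.0 and 12.6 FPKM in A673 and at 14.8, 12.6 and 13.8 FPKM in SKNMC. Its log2 fold changes were -0.019 and -0.25 in A673 and -0.22 and -0.095 in SKNMC, and all 4 turned above 0 with the 75th percentile scaling, at 0.22, 0.095, 0.054 and 0.44. It was the only member within 1.5-fold of DMSO in all 4 comparisons, as were 35.5% of the 10574 genes active in both lines. With the ribosomal protein scaling it was past 1.5-fold at 200 nM, at -0.60 in A673 and -0.62 in SKNMC. GABPA overlaps ATP5J, an ATP synthase subunit gene on the other strand, by 1104 bp. ATP5J was at 150 to 154 FPKM with DMSO and at 169 to 207 FPKM with THZ1, and its part in the GABPA values was not tested.

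The 18 other members of the ETS family were read for comparison, 7 of them active in each line. In A673, 2 of 7 fell past 2-fold with the low dose and 3 of 7 with the high dose, against 15.9% and 25.3% of all active genes. In SKNMC, 2 of 7 and 5 of 7 did, against 15.8% and 27.3%. Of those counted in A673, FLI1 with the low dose and ETV1 with the high dose lay close to the threshold. FEV, counted in SKNMC with the high dose, was at only 1.67 FPKM there with DMSO. FLI1, whose values here hold the fusion transcript as well, was at 31.5, 15.0 and 4.26 FPKM in A673 and at 27.3, 15.2 and 4.56 FPKM in SKNMC. Its log2 fold changes of -2.63 and -2.34 at 200 nM were lower than those of any of the 10 members. ELF4, a paralogue of ELF1 and ELF2, was at 8.73, 2.68 and 2.72 FPKM in A673 and at 8.43, 2.25 and 1.86 FPKM in SKNMC. Like ERF it was decreased at both doses in both lines, with log2 fold changes from -1.39 to -1.72. ETV3, a repressor close to ERF, was at 10.7, 12.7 and 6.89 FPKM in A673 and at 9.52, 9.84 and 5.37 FPKM in SKNMC. ETV5 was decreased at both doses in SKNMC (-1.23 and -2.30), with -0.43 and -0.93 in A673. ETV1 and ETV4 were higher in A673 than in SKNMC with DMSO, as was ETS1, at 22.0 against 2.98 FPKM and 6.11 against 0.281 FPKM. The haematopoietic and epithelial members SPI1, SPIB, SPIC, ELF3, ELF5, EHF and SPDEF were below 1 FPKM in all libraries, and so was ERG, the neighbour of ETS2 on chromosome 21 at a distance of 144 kb. FLI1 made up 10.5% of the summed FPKM of the 28 family genes in A673 with DMSO and 2.90% at 200 nM, and 8.56% and 3.63% in SKNMC. The 10 members made up 66.0% and 72.5% in A673 and 77.8% and 86.9% in SKNMC. Their own sum in A673 was 198, 138 and 107 FPKM with DMSO, 50 and 200 nM THZ1, and in SKNMC it was 248, 160 and 109 FPKM.

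**Figure D4:**
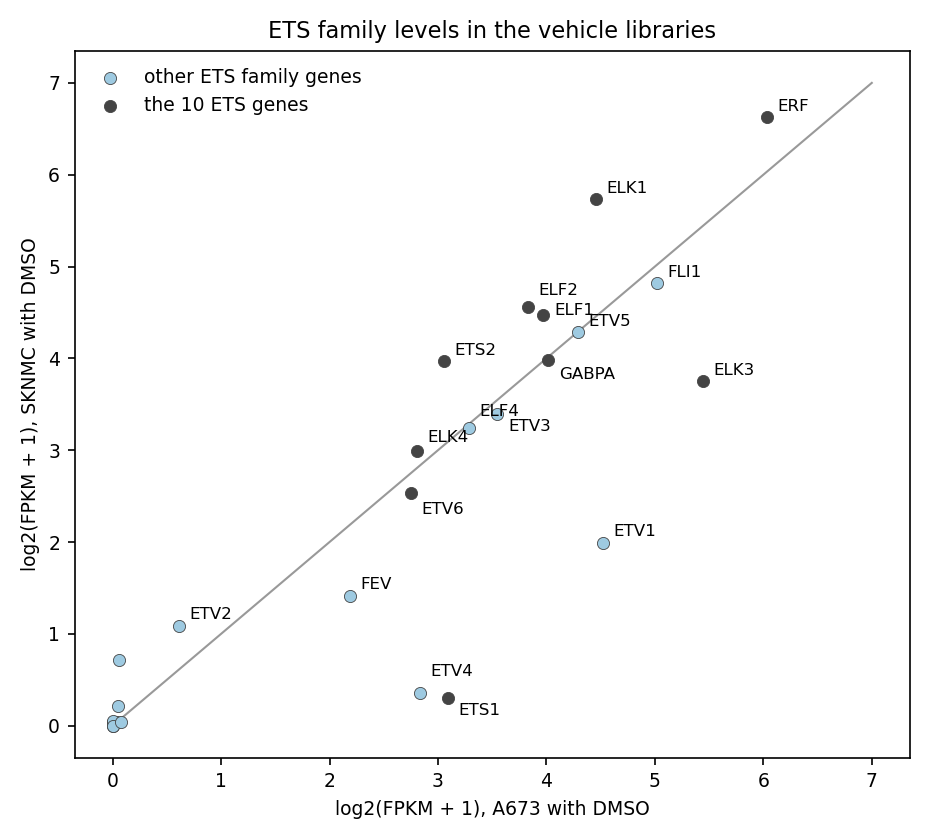
Log2(FPKM + 1) of the 28 ETS family genes in the DMSO libraries of A673 (horizontal) and SKNMC (vertical), with the 10 members in dark grey and the other 18 in light blue; the line marks equal levels, and genes below 1 on both axes carry no name. ETS1, ETV4 and ETV1 lie far below the line, and ERF lies highest.

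Partners and regulators of ETS factors were read from a list of 16 genes, of which 15 were active in each line. With the low dose none of them fell past 2-fold in A673 and 1 did in SKNMC, while with the high dose 6 did in A673 and 5 in SKNMC. The shares of all active genes were 15.9% and 15.8% with the low dose and 25.3% and 27.3% with the high dose. None was increased at least 2-fold. GABPB1, the partner that gives GABPA its activation domain, was at 17.6, 9.43 and 6.58 FPKM in A673 and at 9.66, 3.86 and 2.03 FPKM in SKNMC. Its log2 fold changes were -0.84 and -1.30 in A673 and -1.13 and -1.82 in SKNMC, so it was lower in every THZ1 library where GABPA stayed within 1.5-fold. GABPB2, the alternative partner, was at 2.18, 1.82 and 2.87 FPKM in A673 and at 4.71, 2.55 and 4.92 FPKM in SKNMC. SRF, with which the ELK factors bind, was at 30.5, 23.4 and 19.9 FPKM in A673 and at 27.1, 26.7 and 14.6 FPKM in SKNMC. MKL1, the other kind of SRF coactivator, had a dose course close to that of ELF1, at 14.4, 12.5 and 3.26 FPKM in A673 and 12.3, 12.1 and 3.28 FPKM in SKNMC. The coactivator EP300 (-0.059 and -1.53 in A673, -0.15 and -1.61 in SKNMC) and the corepressor SIN3A (-0.32 and -1.64, 0.062 and -1.56) also had most of their difference at 200 nM. DAXX, which binds ETS1, was at -1.26 and -1.52 at 200 nM in A673 and SKNMC. The kinases MAPK3, MAP2K1 and MAP2K2, of the cascade that signals to ETS1, ETS2, ERF and the ELK factors, were not past 2-fold in any comparison, with log2 fold changes from -0.33 to 0.77. RUNX1, a partner of ETS1 in blood cells, was at or below 0.182 FPKM in all libraries.

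The genes most like a member in their 4 log2 fold changes were sought among 10568 genes, by the distance over the 4 THZ1 libraries, for the 2 members with the lowest and the 2 with the highest mean. For ERF these were FAXC, TMEM37 and CDC6, at distances of 0.102 to 0.143. For ETS2 they were LYAR, CUL1 and PUM2 (0.189 to 0.221), for GABPA GSR, PLXNB2 and OTUD6B (0.0606 to 0.115), and for ELK4 FAM126B, MTA2 and EPC2 (0.137 to 0.152). Among the members themselves the closest pair was ELK1 and ELK3, at 0.485, followed by ETS2 and ELF2 at 0.788. The paralogues ELF1 and ELF2 were 1.25 apart, and ELK4 was 1.31 from ELK3 and 1.58 from ELK1. These distances rest on 4 values that share a DMSO library in pairs.

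Promoter sites were set beside the fold changes over all active genes with a RefSeq window, a reading chosen after the data were seen. In A673, 767 of 8386 such genes (9.15%) held CCGGAAGT. At 50 nM 20.2% of them were decreased at least 2-fold, against 15.5% of those without it, and at 200 nM 29.9% against 25.4%. In SKNMC, where 776 of 8910 held it, the shares were 21.3% against 14.9% and 34.1% against 27.9%. With GGAAGGAA they were 13.0% against 16.0% at 50 nM and 25.1% against 25.8% at 200 nM in A673. In SKNMC they were 12.3% against 15.6% and 28.1% against 28.4%. For the core CCGGAA the shares at 50 and 200 nM were 17.8% against 15% and 26.7% against 25.3% in A673. In SKNMC they were 17.3% against 14.6% and 29.8% against 27.8%. As deposited, GABPA and ELK4, which hold CCGGAAGT, were decreased in no comparison. With the ribosomal protein scaling ELK4 was at -1.07 in A673 at 200 nM. These are descriptions across genes, which are not replicates, and GC content, level and length of the genes were not matched.

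The members lie on 8 chromosomes. In the hg19 coordinates of the table, with starts counted from 1, they span chr11:128328656-128457453 (ETS1, minus strand), chr21:40177231-40196879 (ETS2, plus), chr13:41506056-41635576 (ELF1, minus), chr4:139949266-140098372 (ELF2, minus) and chrX:47494920-47510003 (ELK1, minus). The others span chr12:96588160-96663613 (ELK3, plus), chr1:205577071-205601090 (ELK4, minus), chr21:27106881-27144771 (GABPA, plus), chr19:42751724-42759309 (ERF, minus) and chr12:11802788-12048336 (ETV6, plus). The span ran from 7586 bp for ERF to 245549 bp for ETV6. Across members, the Spearman correlation of span with the log2 difference of 200 nM over 50 nM was -0.552 in A673 (10 genes) and -0.383 in SKNMC (9 genes), and over all active genes it was -0.230 and -0.155. Against DMSO the sign was not kept. At 50 nM it was 0.103 and 0.550 for members and 0.182 and 0.175 for all active genes, and at 200 nM -0.345 and -0.100 for members and -0.0138 and 0.0434 for all active genes. All points of a correlation share the same pair of libraries, and the values are given as a description.

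The depth of the libraries is not given by FPKM. From the most frequent ratio between low values, the THZ1 libraries were at about 88.9% to 96.6% of the depth of their DMSO library, a rough estimate since at most 1.60% of low genes sat at that ratio. The label of both lines was read against 9 Ewing sarcoma markers, CD99 and NKX2-2 among them, and all 9 were above 1 FPKM with DMSO, from 9.15 to 711 FPKM in A673 and from 21.4 to 370 FPKM in SKNMC. Of the blood markers, PTPRC was at 7.90 to 13.1 FPKM in SKNMC and at most 0.0291 in A673, while CD3E was listed at 0 throughout. Of 3 epithelial markers only KRT18 was above 1 FPKM, in both lines, CDH5 of the endothelium was at most 0.127 FPKM, and of 3 fibroblast markers 2 were above 1 FPKM in A673 and 3 in SKNMC. The summed level of the fibroblast markers ran from 45.1 to 54.0 FPKM in A673 and from 80.4 with DMSO to 134 at 200 nM in SKNMC.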

How the data were processed

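RNA-seq of 6 libraries was read, from A673 and SKNMC cells with DMSO, 50 nM or 200 nM THZ1 for 6 h, with groups taken from the sample titles (which spell SKNMC as SKMNC). Libraries were made with a TruSeq kit and read in pairs. The authors aligned the reads to hg19 by STAR with the Ensembl annotation and estimated FPKM by StringTie, while the submitters' processing notes list STAR and Cufflinks. The authors deposited 1 FPKM value per gene and library; the table's title speaks of averages, and whether cultures were pooled is not given in the sources used here. The 4 columns of log2 fold changes deposited by the authors were not used. Absolute depth is unknown, so no counting error could be given. The table lists protein-coding and lincRNA genes, and how shared reads were assigned is not given in the sources used here.

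Fold changes used a pseudocount of 1, active genes had FPKM above 1 with DMSO, and the threshold was 2-fold. Gene starts in the table count from 0: in 54.6% of 26108 genes the GENCODE start on GRCh37 was 1 higher, and in 1.59% it was equal. The members and lists were chosen with earlier results of these data known. Named genes were the members, genes of the other-ETS and partner lists, and the 3 genes nearest to the 2 members with the lowest and the 2 with the highest mean fold change. Single values of 2 genes of the partner and marker lists are not reported here. Other settings are in the closing section. The test used limma 3.58.1 with a mean-variance trend. Other calculations used Python (numpy, pandas and scipy) and were tested on simulated data.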

Additional observations from a re-analysis of the deposited data

How the results depend on the processing

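With a pseudocount of 0.1 or none, with a common sum of listed FPKM, without a filter on low values and with active genes above 5 FPKM, the counts of decreased members stayed within 1.5 times those given, up to 6 in A673 at 200 nM without a pseudocount. The share of active genes decreased there was 31.7%, against 25.3% with the pseudocount of 1. With the 75th percentile of active genes as the scale, 0 members in SKNMC were past 2-fold with the low dose (9.67% of active genes) and 2 with the high dose (13.0%). With the median of the ribosomal protein genes as the scale, 2 members were decreased with the low dose (23.9% of active genes) and 7 with the high dose (37.4%) in A673. In SKNMC 3 were with the low dose (25.7%). With a 1.5-fold threshold, the low dose gave 2 of 10 members (31.8% of active genes) and the high dose 7 (41.1%) in A673, and the low dose 4 of 9 (33.5%) in SKNMC. The medians stayed below 0 under every setting, from -0.20 (75th percentile) to -0.67 (ribosomal proteins) in A673 at 50 nM, -0.59 to -1.25 at 200 nM, and in SKNMC -0.29 to -0.77 and -0.67 to -1.56. Of 38 fold changes of single members, 8 changed sign with the 75th percentile, 2 with the ribosomal proteins and 1 with the common sum, and no fold change past 2-fold did. With no replicates, a value was taken as moved when it shifted by more than 1.5-fold. Leaving out a replicate was not possible with 1 library per condition. The labels give no replicate numbers, so the only replicate block was the line, in the limma fit. There 5, 8 and 4 members were lower (50 nM, 200 nM, 200 over 50 nM), against 38.5%, 52.7% and 23.2% of genes. With the 75th percentile 1, 5 and 3 members were lower, against 25.2%, 32.0% and 16.8% of genes. With the ribosomal proteins it was 6, 9 and 5, against 56.7%, 76.9% and 29.4% of genes. The between-line and between-dose values changed sign for GABPA, ELK1 and ELK4 alone: the dose step of ELK1 in SKNMC was 0.21 (75th percentile) and that of GABPA -0.088 (ribosomal proteins), and the line difference of GABPA was -0.13 and that of ELK4 0.21. The absolute depth is unknown, which limits what can be read of ETS1 in SKNMC.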
